A study of Schizosaccharomyces pombe with 6 samples.

Results

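Positions transcribed on both strands were picked from the tiling probes of the array alone. In its densely tiled part, probes with consecutive numbers form a position, and the odd-numbered and the even-numbered probe of a position were taken to read opposite strands. A probe was called on when its input signal was well above background on all 6 arrays. Runs of 3 or more neighbouring positions with both probes on numbered 504, and they held 2451 of 73500 positions, or 4902 of 174063 tile probes on the whole array. In each run, the strand with the lower mean log2 input signal is called the weaker strand and the other one the stronger strand. The files used here name no strand, gene or genome position, so a run is called by its first probe number, and which probe of a pair reads which strand of the chromosome is not known.

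In fission yeast, RNA polymerase II transcribes much of the genome on both strands. Antisense and other cryptic unstable transcripts are kept low because nuclear complexes hand them to the exosome, a machine that degrades RNA from its 3′ end. The MTREC complex, built around the zinc-finger protein Red1 and the Mtr4-like helicase Mtl1, is one of these targeting complexes, and Red5 is a zinc-finger protein that belongs to its submodule with the poly(A)-binding protein Pab2.

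RNA bound to Red1-FTP (strain p919), Mtl1-FTP (strain p920) or Red5-FTP (strain p1160) was set against total RNA of the same strain. FTP is a C-terminal Flag-TEV-protein A tag, and all strains grew in the rich medium YEA. Purified RNA (IP) carried Cy5 and total RNA (input) Cy3 after reverse transcription with random hexamers, on 6 arrays, 2 biological replicates per bait. Dyes were not swapped and an untagged control was not analysed here, so binding to the bait, unspecific binding and a dye effect cannot be told apart in a ratio of IP to input. All ratios below are log2 of IP over input after the median of all non-control probes of an array was set to 0. An enriched probe or run therefore lies above that median, and a depleted one below it. Between 55.3 and 67.3% of the tile probes of an array were well above background in the IP and 47.1 to 57.5% in the input, no tile spot was saturated, and the number of arrays limits the precision.

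The odd probe was on in all 6 inputs at 41.1% of positions and the even probe at 40.4%, while both were on at 10.2%. That share is below the 16.6% given by the product of the single shares. Of the 7520 positions with both probes on, 32.6% lay in runs of 3 or more, and the others formed 3775 single positions and 647 pairs. Among the 504 runs, 372 had 3 to 5 positions, 94 had 6 to 9 and 38 had 10 or more, with a median of 4 and a maximum of 19. Runs lay close to each other in places, since runs more than 5 positions apart formed 391 groups. The weaker strand was the odd one in 270 runs and the even one in 234. Just outside the length limit, the 647 runs of 2 positions averaged 0.44 ± 0.21 on the weaker strand and -0.04 ± 0.13 on the stronger (SD over 6 arrays). The 207 runs of 3 positions, just inside it, averaged 0.59 ± 0.16 and 0.03 ± 0.09.

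The weaker strand had a higher IP over input ratio than the stronger strand of the same run. The order of strands for an array was taken from the inputs of the 3 arrays with the other replicate number. That order equalled the order from all 6 inputs in 98.0% and 97.2% of runs for arrays of replicate 1 and 2. The mean ratio of the weaker strand was 0.83 and 1.03 on the Red1-FTP arrays, 0.83 and 0.54 on the Mtl1-FTP arrays and 0.63 and 0.70 on the Red5-FTP arrays. The stronger strand had 0.04 and 0.08 on the Red1-FTP arrays, 0.08 and -0.08 on the Mtl1-FTP arrays and -0.06 and 0.11 on the Red5-FTP arrays. The lowest array of the weaker strand thus lay above the highest array of the stronger strand. The weaker strand averaged 0.76 ± 0.17 and the stronger strand 0.03 ± 0.08 (SD, n = 6 arrays), a difference of 0.73 ± 0.13 that was above 0 on 6 of 6 arrays. Since the strands are ranked by the input, which is also the denominator of the ratio, and the order hardly depends on the arrays that set it, this difference is given as a description with no test. It was 0.74 within slide 1, which held replicate 1 of all baits, and 0.77 within slide 2, which held replicate 2 of Red1-FTP and Red5-FTP.

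**Figure D1:**
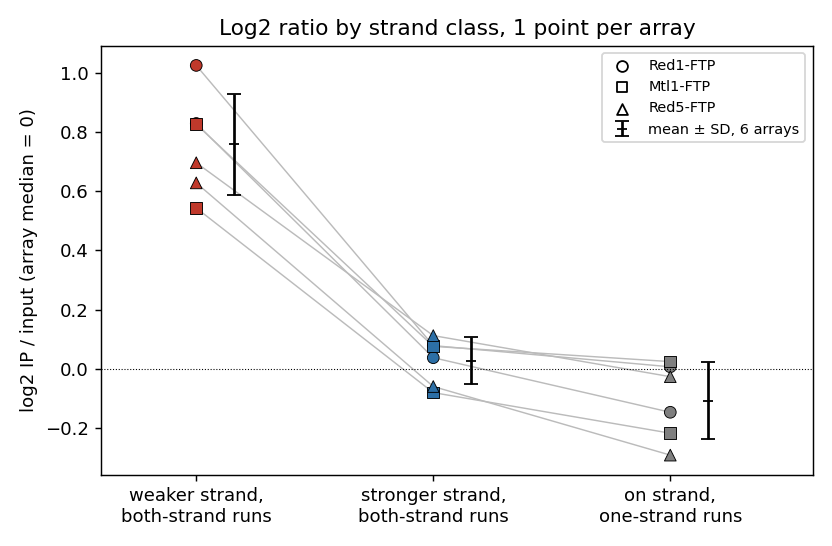
Mean log2 IP over input (y axis) of the weaker strand, the stronger strand and one-strand runs (x axis), 1 point per array. Colours mark the class, marker shapes the bait, and bars the mean and SD over 6 arrays. The weaker strand lies between 0.54 and 1.03 on every array, and the other classes lie between -0.29 and 0.11.

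This difference rested on runs whose strands differed widely in the input. In the 218 runs whose strands were 2 or more log2 units apart in the input, the weaker strand averaged 1.40 ± 0.34 and the stronger strand -0.04 ± 0.09. In the 102 runs with a gap of 1 to 2 units the averages were 0.47 ± 0.12 and 0.04 ± 0.08, and in the 184 runs with a gap under 1 unit they were 0.16 ± 0.07 and 0.10 ± 0.08 (SD over 6 arrays, strands ordered by all 6 inputs). With the order taken from the other replicate number, the difference in runs with a gap under 1 was 0.066 ± 0.061. A ratio holds the input in its denominator, so it moves with the input gap by construction. Over the 504 runs the ratio of the weaker strand also went up with the input of the stronger strand, which was read by other spots (Pearson's r = 0.522, Spearman's rho = 0.486, a description over runs that share arrays). How much of the signal at a weaker strand stems from its stronger partner was not tested.

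The strands kept their order in the IP in most runs, but the gap narrowed. Per array, the geometric mean IP intensity of the weaker strand was 232 to 456 units against 659 to 1641 units for the stronger strand. In the input, the weaker strand had 160 to 327 units and the stronger strand 758 to 1784 units. The stronger strand thus stood 1.43 to 1.87 log2 units above the weaker strand in the IP of an array, against 2.25 to 2.54 in its input. This narrowing is the strand difference in the ratio in another form. The input ranks the strands, so it too is a description with no test. IP spots of the runs were well above background for 96.1 to 99.96% of weaker-strand probes and 98.8 to 99.96% of stronger-strand probes, so the ratios seldom rest on an IP signal near background. The mean IP gap had the opposite sign to the input gap in 73 of 504 runs (14.5%), on 6 of 6 arrays in 35 runs, and the same sign on 6 of 6 arrays in 367 runs. Over runs the IP gap followed the input gap with r = 0.803 (rho = 0.784, n = 504 runs on the same arrays).

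**Figure D2:**
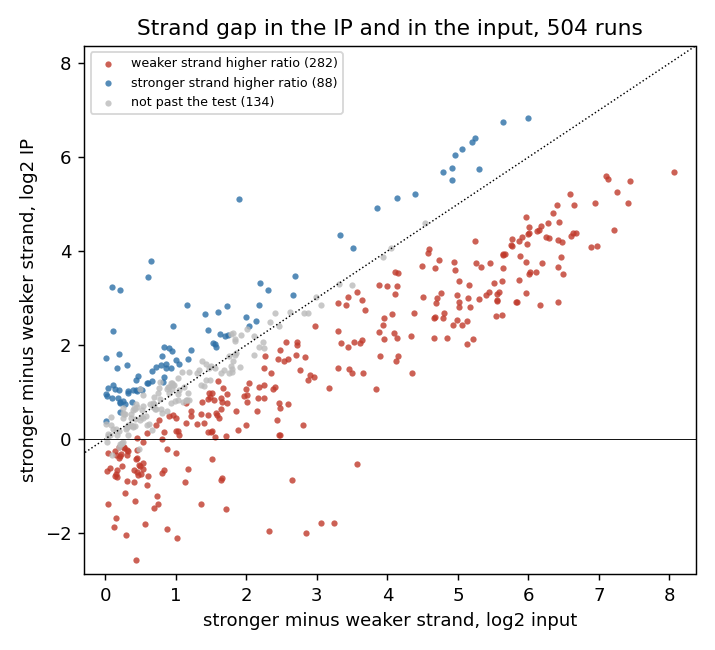
Gap between the strands in the IP (y axis) against the gap in the input (x axis), both as stronger minus weaker in log2 units and averaged over 6 arrays, 1 point per run. The line marks equal gaps, so a run below it has by construction the higher ratio on its weaker strand. Limma called 282 runs with the weaker strand higher, below the line, and 88 with the stronger strand higher, above it.

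Single runs went both ways. Taking each run and strand as a feature and testing all 15774 features of the dense part with limma, the weaker strand was enriched in 274 of the 504 runs (54.4%) and depleted in 68 (13.5%) at an adjusted p under 0.05. The stronger strand was enriched in 131 (26.0%) and depleted in 150 (29.8%). Of all features tested, 40.6% were called enriched and 16.0% depleted, and the tested set also holds strands that were not on. Both strands were enriched in 89 runs and both depleted in 32, while 67 runs had an enriched weaker and a depleted stronger strand and 2 runs the opposite. These shares move with the centre of the arrays. With the mean of all probes as the centre, which lowers every ratio by 0.23 to 0.42, the weaker strand was enriched in 40.7% of runs and depleted in 28.0%, and the stronger strand in 14.9% and 49.2%.

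The difference between the strands of a run does not depend on that centre. With the strands ordered by all 6 inputs, whose values are also in the ratios, the runs whose odd and even strand limma called different comprised 282 (56.0%) with the weaker strand higher and 88 (17.5%) with the stronger strand higher, and 134 runs did not pass. How these calls divide between weaker and stronger strands is a description, not a test of that order. In the table of all 7887 runs of any state, the strand with the lower input was called higher in 49.7% and the strand with the higher input in 19.4%, so the both-strand runs lie near this background. The weaker strand had the higher ratio on 6 of 6 arrays in 268 runs (53.2%), the stronger strand in 77 (15.3%), and the order was mixed in 159. Probe by probe, 46.4% of weaker-strand probes were enriched and 11.4% depleted, against 23.8% and 24.2% of stronger-strand probes. The background over all tile probes was 27.0% enriched and 14.1% depleted, and over the probes of the dense part that were on in all 6 inputs it was 20.3% and 23.7%. The stronger-strand probes lie near the shares of on probes. Across runs the weaker ratio spanned -1.68 to 4.63 with a median of 0.49, and the stronger ratio spanned -2.05 to 4.13 with a median of 0.01. The 2 ratios of a run were only loosely related (r = 0.231, rho = 0.281, n = 504).

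The mean IP over input of both strands in both-strand runs was higher than that of the on strand in one-strand runs. The comparison class was 3580 runs of 3 or more positions in which 1 probe was on in all 6 inputs and its partner in none, with 15585 on-strand probes. The mean of both strands was 0.43 and 0.55 on the Red1-FTP arrays, 0.45 and 0.23 on the Mtl1-FTP arrays and 0.28 and 0.40 on the Red5-FTP arrays. One-strand runs had -0.15 and 0.01 on the Red1-FTP arrays, 0.02 and -0.22 on the Mtl1-FTP arrays and -0.29 and -0.03 on the Red5-FTP arrays. The classes did not overlap, and both-strand runs lay 0.50 ± 0.07 above one-strand runs (SD, 6 of 6 arrays). The exact two-sided sign-flip permutation test over the 6 arrays gave p = 0.03125, the smallest it can give, and p = 0.0402 after Benjamini-Hochberg adjustment over 9 such contrasts. This comparison leaves out the partner strand of one-strand runs. With both strands counted, the median ratio was 0.18 in both-strand runs. It was 0.14 and 0.15 in runs where only the even or only the odd probe was on in all 6 inputs. Limma called 405 of 1008, 1860 of 4998 and 1918 of 5158 of these strands enriched, against 40.6% of all features.

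Because a ratio holds the input, the classes were also compared within 10 bins of input, taken from the arrays of the other replicate number. At the same input level both-strand probes lay 0.53 ± 0.08 above one-strand probes (6 of 6 arrays, exact p = 0.03125, adjusted 0.0402). The weaker strand alone lay 0.88 ± 0.14 above them and the stronger strand 0.18 ± 0.11, each on 6 of 6 arrays. Since the input ranks these strands, their values are a description with no test. The stronger strand's excess was 0.26 within slide 1 and 0.09 within slide 2. It was -0.061 in runs of 10 or more positions, below 0. In runs with an input gap under 1 unit, both-strand probes still lay 0.20 ± 0.11 above one-strand probes of the same input level (exact p = 0.03125, adjusted 0.0352), the weaker strand by 0.22 ± 0.12 and the stronger by 0.17 ± 0.10. By bin, the weaker strand stayed between 0.72 and 1.17 in the 9 bins that held at least 20 of its probes, whereas the stronger strand went from 0.35 in the lowest bin to -0.24 in the ninth and stood at 0.38 ± 0.08 in the highest, which held the most stronger-strand probes (478 to 480 per array). One-strand probes went from 0.04 in the lowest bin to -0.28 in the ninth and -0.03 ± 0.37 in the highest, where they numbered 39 to 40.

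**Figure D3:**
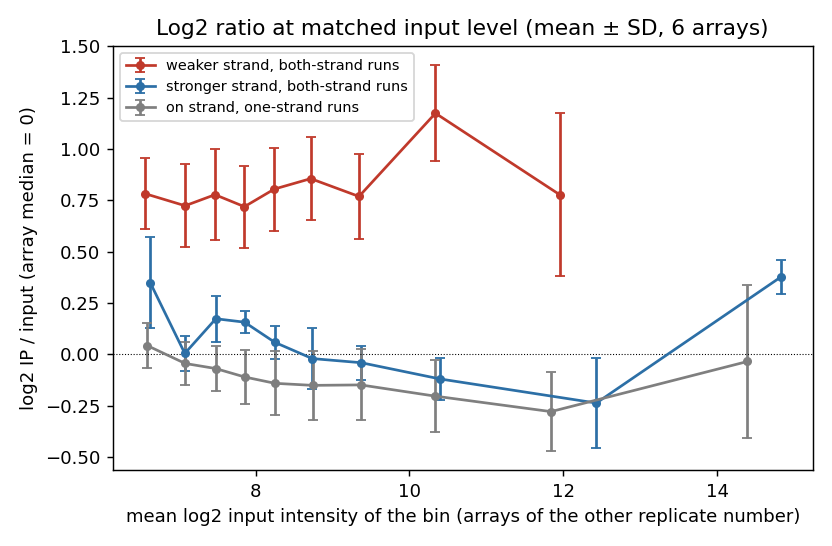
Mean log2 IP over input (y axis) against mean log2 input (x axis) in 10 input bins for weaker-strand, stronger-strand and one-strand probes, with bars for the SD over 6 arrays. The weaker strand lies above the one-strand probes in each of the 9 bins shown for it.

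The difference between long and short runs depended on which runs were counted. Runs of 10 or more positions lay 0.04 ± 0.16 above runs of 3 to 5 positions in the mean of both strands, above 0 on 3 of 6 arrays (exact p = 0.5625, adjusted 0.5625). Per array this value went from -0.18 on replicate 1 of Red5-FTP to 0.26 on replicate 2 of Red1-FTP. Without the 45 runs whose stronger strand had a mean log2 input of 14 or more it turned to -0.28 (exact p = 0.03125, adjusted 0.0352). It was also below 0 and passed in runs with an input gap under 1 (-0.15, adjusted exact p = 0.0352) or under 2 units (-0.23, adjusted exact p = 0.03125), and was above 0 and passed with runs of 1 or more positions (0.30, adjusted exact p = 0.03125). Those 45 runs averaged 1.73 ± 0.34 on the weaker and 0.52 ± 0.12 on the stronger strand, against 0.66 ± 0.17 and -0.02 ± 0.09 in the other 459. The difference between the strands was 0.69 ± 0.12 in runs of 3 to 5 positions, 0.89 ± 0.16 in runs of 6 to 9 and 0.75 ± 0.19 in runs of 10 or more.

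In 126 runs the same strand alone was on in both flanks. A flank is the nearest 5 positions, with at least 3 of 1 state. That strand is called the continuing strand and the other one the ending strand. Such a nested run is said here to lie inside a transcript of the continuing strand, although transcript ends were not mapped. The ending strand could still be on at some flank positions or farther out. The strands are named here by where the input was on, so the naming is not free of the input level. The ending strand was the weaker one in 113 of the 126 runs, with a mean log2 input of 7.95 against 10.31 for the continuing strand, and the values below are a description with no test. The ending strand had ratios of 1.08 and 1.57 on the Red1-FTP arrays, 1.16 and 0.79 on the Mtl1-FTP arrays and 0.81 and 1.02 on the Red5-FTP arrays. The continuing strand had -0.05 and 0.06 on the Red1-FTP arrays, 0.02 and -0.29 on the Mtl1-FTP arrays and -0.29 and 0.01 on the Red5-FTP arrays. The ending strand was higher on every array, by 1.16 ± 0.18 on average. Limma called the ending strand higher in 86 of the 126 runs and lower in 13. Over all 7887 runs of any state, the strand with the lower input was called higher in 49.7% and the other strand in 19.4%. In IP intensity itself, the ending strand was above the continuing strand in only 27 of the 126 runs. In nested runs with an input gap under 1 unit the difference was 0.24 ± 0.13.

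The continuing strand changed little where the other strand came on. Over 564 run ends with a one-strand flank, its ratio inside the run minus that outside was -0.02 ± 0.03 (above 0 on 1 of 6 arrays, exact p = 0.15625, adjusted 0.176). It passed in runs with an input gap under 1 unit, at -0.064 ± 0.020 (exact p = 0.03125, adjusted 0.0352), and under 2 units, at -0.039 ± 0.020 (exact p = 0.03125, adjusted 0.03125). The other strand averaged 0.76 to 0.84 at the first 3 positions inside the run and 0.59 to 0.92 at the 8 positions outside it. The input sets where a run ends and is also the denominator of the ratio, so the outside values are a description with no test. Outside, its IP was well above background at 52.7 to 64.8% of spots against 32.9 to 38.2% for its input. Enrichment where the input was not on was not limited to run ends. In stretches with neither probe on in all 6 inputs, the median ratio was 0.35 and limma called 2216 of 4610 strands enriched. A ratio over an input near background is less certain than one inside the run.

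**Figure D4:**
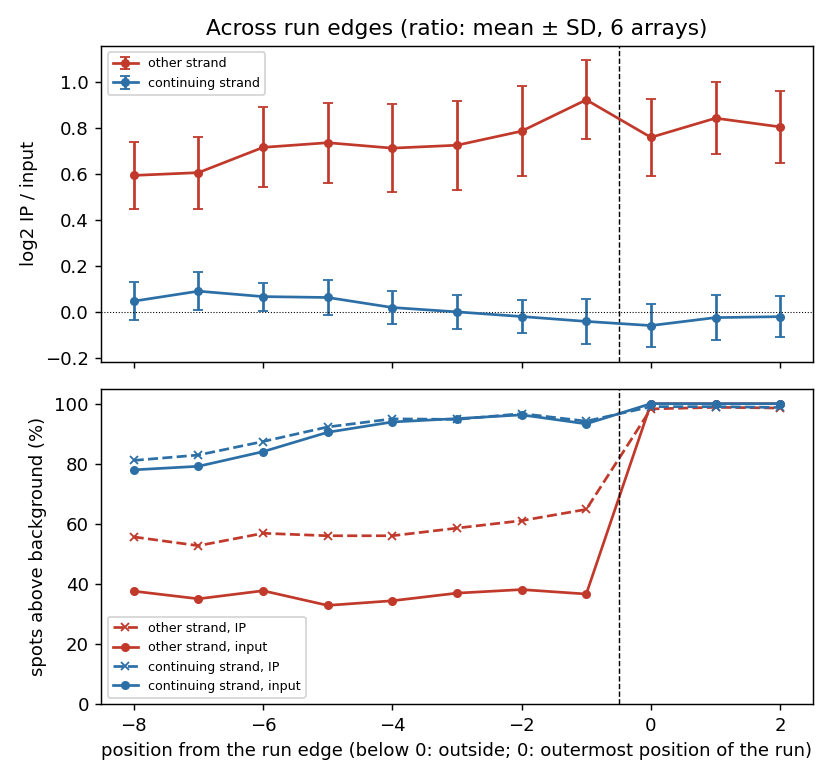
Top, mean log2 IP over input (y axis) of the other and the continuing strand by distance from the run end in positions (x axis, inside from 0 up), with bars for the SD over 6 arrays, and bottom, the percent of spots well above background in IP and input. The other strand lies between 0.59 and 0.92 at all distances and the continuing strand between -0.06 and 0.09.

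Between transcripts on different strands, the ratio differed with the order of the strands along the probe numbers. In 46 runs the odd strand was on before the run and the even strand after it, and in 6 runs the even strand came first. Since the direction of transcription is not given, which of these orders is convergent is not known. The odd-to-even runs had a mean of both strands of -0.18 to 0.03 over the arrays, and the even-to-odd runs 0.96 to 1.48. Single runs overlapped, from -0.84 to 1.23 with a median of -0.07 among odd-to-even runs and from 0.06 to 2.39 with a median of 0.73 among even-to-odd runs. The difference of -1.20 ± 0.20 was below 0 on 6 of 6 arrays (exact p = 0.03125, adjusted 0.0402). This p measures the spread between arrays that read the same runs, not the spread between runs, and 1 kind held only 6 runs. The difference went from -1.41 to -0.95 when each of the 6 even-to-odd runs was left out in turn. In odd-to-even runs the strands hardly differed, with -0.08 ± 0.08 on the weaker and -0.06 ± 0.10 on the stronger strand. Even-to-odd runs had 2.0 ± 0.28 on the weaker and 0.26 ± 0.17 on the stronger strand. The 208 runs with a one-strand flank on 1 side only (0.79 ± 0.16 and 0.05 ± 0.06) and the 118 with none (0.67 ± 0.19 and 0.10 ± 0.09) lay between these kinds.

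The 5 runs in which the weaker strand stood highest over the stronger began at probes sp40c_45877, sp40c_110889, sp40c_133503, sp40c_51027 and sp40c_49647. In sp40c_45877, which spans 5 positions inside a transcript of the even strand, the weaker, odd strand had ratios of 4.43 and 4.82 for Red1-FTP, 4.06 and 5.44 for Mtl1-FTP and 4.68 and 4.33 for Red5-FTP. Its stronger strand had -0.86 and -0.12, -0.58 and -0.74, and -0.32 and 0.16 on the same arrays. The strands were far apart on every array, with a limma difference of 5.04 ± 0.21 (SE, adjusted p = 2.84e-07), and the weaker strand was also the higher one in the IP, at 12.27 against 10.48 log2 units, although it had 7.87 against 11.12 in the input. The runs sp40c_45877, sp40c_49647, sp40c_110889 and sp40c_133503, at least 1885 positions apart, had stronger-strand ratios within 0.16 of each other on every array and weaker-strand means of 3.72 to 4.63. Whether their probes share sequence was not tested, so these 4 runs may not be independent of each other. The run sp40c_51027, of 3 positions, is one of the 6 even-to-odd runs, with 4.53 on the weaker and 0.24 on the stronger strand and a difference of 4.29 ± 0.18 (SE, adjusted p = 2.84e-07).

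The ratio was not even along the weaker strand of sp40c_49647, a run of 10 positions inside a transcript of the odd strand. The ratio of its even strand was 1.70 ± 0.71 at the first position, 3.59 ± 0.58 at the fifth and 5.15 ± 0.49 at the last (SD, n = 6 arrays), and it was 0.33 ± 0.60 at the next position outside. Farther out it was 3.86 ± 0.46 at the twelfth and 2.22 ± 0.70 at the fourteenth position, where the input was above background on 0 of 6 arrays and the IP on 6 of 6. Its odd strand stayed between -0.60 and -0.21 within the run, but stood at 1.43 ± 0.91 at the thirteenth position, outside it. The even strand's log2 input was 6.52 at the first and 7.89 at the last position, and its log2 IP 7.99 and 12.81.

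**Figure D5:**
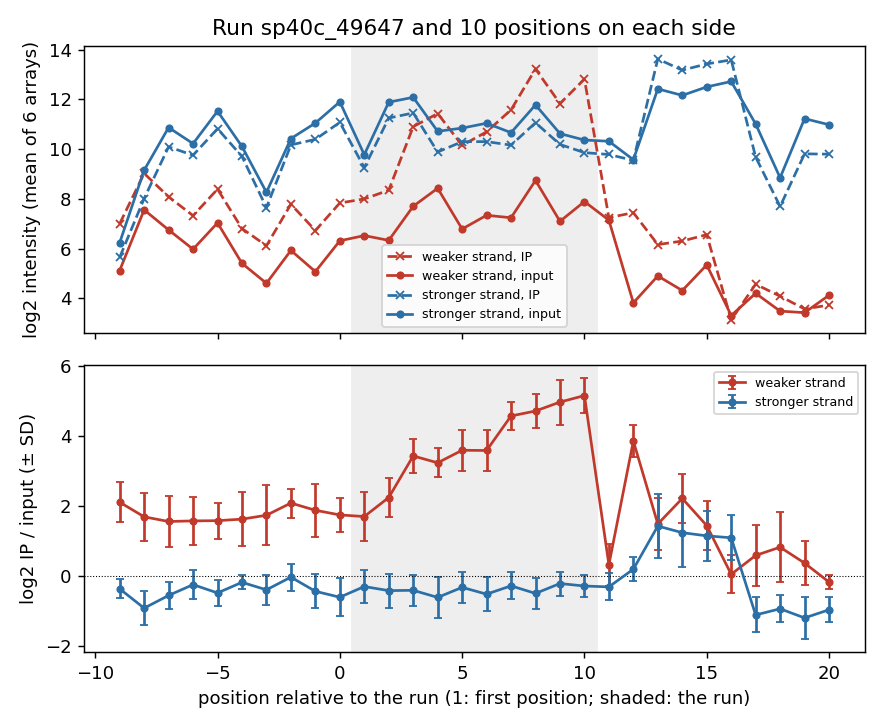
Log2 signal in IP and input (upper panel, mean of 6 arrays) and log2 IP over input with the SD over 6 arrays (lower panel) along the run that starts at sp40c_49647, by position (x axis, counted from 1 at its first position, the run shaded), for the even (weaker) and the odd (stronger) strand. The even strand's ratio goes from 1.70 at the first to 5.15 at the last position of the run, and the odd strand's stays below 0 within it.

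At the other end were the 5 runs in which the stronger strand stood highest over the weaker. They began at sp40c_27449, sp40c_57267, sp40c_89505, sp40c_76995 and sp40c_39403 and differed by -3.20 to -2.84 (weaker minus stronger). All spanned 3 to 5 positions, as did 372 of all 504 runs. In sp40c_57267 the log2 inputs were 7.37 and 7.46 on the weaker and the stronger strand, so which strand is called weaker there is a matter of 0.09 units, and the ratios were -0.23 and 2.91. In sp40c_89505, inside an odd-strand transcript, the weaker strand had 0.99 and 1.12 for Red1-FTP, 1.19 and 0.81 for Mtl1-FTP and 0.73 and 0.65 for Red5-FTP. Its stronger strand had 4.06 and 3.57, 4.48 and 4.52, and 4.12 and 3.58 on the same arrays, a difference of -3.14 ± 0.15 (SE, adjusted p = 4.61e-07) with both strands called enriched.

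The runs with the highest mean of both strands among those with both enriched were sp40c_39403 (1.28 on the weaker and 4.13 on the stronger strand), sp40c_89505, sp40c_2935 and sp40c_2797. The last pair, 69 positions apart and of 5 positions each, had nearly the same values: 3.69 and 3.67 on the weaker and 1.18 and 1.18 on the stronger strand. The mean log2 inputs of their 10 matching probes differed by at most 0.36, and whether they share sequence was not tested. Of the runs with both strands depleted, the lowest were sp40c_103303 (-1.22 on the weaker and -2.05 on the stronger strand), sp40c_97083 (-0.84 and -1.94), sp40c_23769 (-1.68 and -1.01) and sp40c_103907 (-1.27 and -1.32). The strands of sp40c_103907 did not differ beyond the spread (0.05 ± 0.15 SE, limma adjusted p = 0.775), while both lay below the array median on all 6 arrays.

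A single stretch held most of the longest runs and the most abundant strands. From sp40c_113989 to the run at sp40c_114523, 12 runs with 113 positions had a stronger strand at 14.83 to 16.02 log2 units in the input and a weaker strand at 9.88 to 11.77. In each of the 12 runs the stronger strand had the higher ratio, with 0.21 to 1.20 on the weaker strand and 1.20 to 2.30 on the stronger. They went against the mean of all 45 runs with a stronger strand at 14 or more log2 units, themselves included, which was 1.73 ± 0.34 on the weaker and 0.52 ± 0.12 on the stronger strand. One run outside the stretch, sp40c_16177, had 2.16 on the weaker and 0.76 on the stronger strand at inputs of 11.10 and 15.17. How the other abundant runs outside the stretch divide was not counted. The longest run of all, sp40c_114255 with 19 positions, had weaker-strand ratios of -0.39 and 1.72 for Red1-FTP, 0.70 and 0.86 for Mtl1-FTP and 0.25 and 0.25 for Red5-FTP. Its stronger strand had 0.13 and 2.57, 1.35 and 1.92, and 0.97 and 1.63. Replicates of Red1-FTP differed by more here than baits did, yet the difference between the strands was steady, at -0.87 ± 0.15 (SE, limma adjusted p = 0.000693). The runs sp40c_114151 (17 positions) and sp40c_114523 (18 positions) had differences of -1.13 ± 0.15 and -1.11 ± 0.15. Outside this stretch, the longest runs were sp40c_59103 with 18 positions (-0.53 on the weaker and 0.04 on the stronger strand) and sp40c_128027 with 17 (-0.04 and -0.43). Runs with the highest input on the weaker strand lay mostly in the same stretch, namely sp40c_113989, sp40c_114005 and sp40c_114459.

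The baits were not told apart at these runs. Of the 1008 strands of the 504 runs, 0 passed limma's test between Red1-FTP and Mtl1-FTP, between Mtl1-FTP and Red5-FTP or between Red1-FTP and Red5-FTP, where 0.0444%, 0.0697% and 0% of the whole table did. The lowest adjusted p among them was 0.307, 0.180 and 0.810. At an unadjusted p under 0.05 there were 42, 71 and 90 strands, or 4.17%, 7.04% and 8.93%, against 6.24%, 6.98% and 5.40% of the whole table. The difference between the strands of a run passed in 0 runs in any of these contrasts. An unadjusted limma p under 0.05 was reached in 23, 31 and 30 runs, or 4.56%, 6.15% and 5.95%. Over all runs of the table these shares were higher, at 8.56%, 9.79% and 6.77%. Averaged over all runs, the weaker strand stood above the stronger by 0.87 ± 0.11 on the Red1-FTP arrays, by 0.69 ± 0.09 on those of Mtl1-FTP and by 0.64 ± 0.07 on those of Red5-FTP (SD, n = 2 arrays each). Both Red1-FTP arrays lay above the other 4, which was not tested. The difference per run correlated between any 2 arrays with r of 0.791 to 0.944 over the 504 runs, a description of arrays that read the same probes.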

How the data were processed

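RNA bound to 3 tagged proteins and total RNA of the same strains were hybridised together on 6 two-colour Agilent tiling arrays, and groups were taken from the labels. The authors deposited, per array, processed signal intensities from Agilent Feature Extraction 10.7.3.1, after its background subtraction and dye normalization. The deposited value table holds log2 IP over input, with 0 at 28.9 to 40.6% of the values of the probes studied, and served as an alternative. Spots marked as outliers and control spots were left out. Log2 ratios were centred on the median of each array, which lay at -0.33 to -0.12, with no further normalization. Array-level contrasts used an exact two-sided sign-flip test over 6 arrays (64 patterns). Arrays were taken as independent, although 3 of them shared slide 1, and replicate 2 of Red1-FTP and of Red5-FTP shared slide 2. Differences between strands of a run that the input itself ranks or names are described without a test in the text. The same holds for the weaker or the stronger strand alone against one-strand probes. All of them stayed in the adjusted family of 9 contrasts. Features and baits were tested with limma 3.58.1 in R 4.3.3, with Benjamini-Hochberg adjustment over all features of a table, and the scripts were tested on simulated data. Named runs were the 5 longest, the 5 highest and 5 lowest strand differences among runs that passed limma with 1 sign on 6 arrays, the 4 highest and 4 lowest with both strands called in the same direction, and the 4 with the highest weaker-strand input. The members, lists and tests were chosen with earlier results of these data known. Background signals, normalization, centres, the definition of on, run length, averaging, slides and single arrays were varied. Probe sequences and positions were not used here.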

Additional observations from a re-analysis of the deposited data

How the results depend on the processing

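The difference between the weaker and the stronger strand, a description with no test, stayed above 0 under all alternatives run. It went from 0.066 in runs with an input gap under 1 unit to 0.90 in runs with a gap of at least 0.5. Both-strand against one-strand probes (0.22 to 0.58), the same at matched input (0.20 to 0.57) and odd-to-even against even-to-odd runs (-1.41 to -0.81) kept their direction. They also kept their call wherever a test was run, which values within a slide had not. Odd-to-even against even-to-odd runs had no value with runs of 5 or more or of 10 or more positions. The weaker strand at matched input (0.22 to 0.98) and ending against continuing strand (0.24 to 1.78) kept their direction and are given with no test. Long minus short runs was 0.30 with runs of 1 or more positions, where it passed. It was below 0 with runs of 5 or more (-0.041), and below 0 and past the threshold without abundant stronger strands (-0.28) and with input gaps under 1 (-0.15) or under 2 (-0.23). The continuing strand inside minus outside was -0.019 with runs of 1 or more positions and -0.064 and -0.039 with gaps under 1 and under 2, where it passed, and 0.021, 0.066 and 0.0099 with runs of 5 or more, of 10 or more and with medians over runs. The stronger strand at matched input was -0.061 with runs of 10 or more positions. The cause of these changes was not tested, and alternatives on input gap, abundance, wider flanks, neighbouring runs and single runs were chosen after seeing the data.

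The share of runs with a depleted weaker strand was 28.0% with mean centring, 8.33% with normexp and 5.62% with input and IP on. That with an enriched stronger strand was 14.9% with mean centring, 12.5% before dye normalization and 11.7% in the deposited value table. A depleted stronger strand had 49.2% with mean centring, and a higher ratio on the stronger strand 6.94% before dye normalization.

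With 5 arrays the exact test cannot go below 0.0625, so no contrast can pass when an array is left out. Leaving out each array gave 0.70 to 0.76 for weaker minus stronger, 0.49 to 0.52 for both-strand minus one-strand probes, 0.52 to 0.55 at matched input, 0.83 to 0.91 and 0.15 to 0.22 for the weaker and the stronger strand at matched input, -1.25 to -1.13 for odd-to-even minus even-to-odd, 1.09 to 1.19 for ending minus continuing and -0.026 to -0.012 for inside minus outside. Long minus short gave -0.0032 to 0.086, with -0.0032 without Red1-FTP replicate 2. The limma shares were 46.8 to 53.8% (weaker enriched), 9.72 to 15.5% (weaker depleted), 19.4 to 26.6% (stronger enriched), 21.2 to 30.4% (stronger depleted), 52.0 to 54.4% (weaker higher) and 13.7 to 17.3% (stronger higher). Between Mtl1-FTP and Red5-FTP 0 to 1 strands passed, and 0 in the other contrasts. The strand difference of sp40c_103907 went from -0.071 without Red1-FTP replicate 2 to 0.17 without replicate 1. Of 336 values of named runs under other alternatives or without an array, 322 kept their call, 13 lost it and 1 changed sign.

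Replicate 1 deviations correlated at 0.60 between Red1-FTP and Red5-FTP (shared slides) and at -0.41 and -0.43 with Mtl1-FTP. With the replicate number as a block, the weaker strand was enriched in 53.4% and depleted in 12.9% of runs, the stronger strand in 25.6% and 28.2%, the weaker strand was higher in 55.6% and the stronger in 17.1%, and 0 strands differed between baits. The block changed no other call. Ratios over an input near background are the least certain.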
